A study of Homo sapiens with 6 samples.

Results

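The 10 genes described here encode the transforming growth factor beta (TGF-beta) ligands and the proteins that mature, hold or activate their latent complexes: TGFB1, TGFB2, TGFB3, FURIN, BMP1, ITGB6, ITGB8, THBS1, LRRC32 and NRROS. They were taken by symbol from a table of 19960 genes, and each symbol matched 1 row. Their RNA was measured in MKN28, an established human gastric cancer cell line that registers of misidentified lines list as derived from another gastric line, MKN74. Stable cells carrying an shLTBP1 plasmid, which expresses a short hairpin RNA against LTBP1, were set against stable cells carrying an shSCR plasmid with a scrambled control hairpin, with 3 libraries in each group and no other treatment given in the labels. The labels do not say whether a line was 1 clone or a pool, how many hairpins were used, or whether replicates within a group were grown apart. The p-values therefore rest on library-to-library spread that may be technical.

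TGF-beta ligands are made as precursors that proprotein convertases such as furin cut into a mature growth factor and a propeptide. The propeptide stays wrapped around the growth factor and keeps it latent, and in most cells a latent TGF-beta binding protein such as LTBP1 is linked to it and tethers the complex to the matrix. Integrins that carry the beta 6 or beta 8 chain bind an arginine-glycine-aspartate motif in the propeptide of TGFB1 and TGFB3 and release or expose the growth factor. The protease BMP1 cuts LTBP1, thrombospondin 1 binds the propeptide, and LRRC32 (GARP) and NRROS (LRRC33) hold latent TGF-beta on the surface of regulatory T cells, platelets and myeloid cells in place of a latent binding protein.

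The coding sequences show what furin and the integrins act on in each ligand, and they are given because the 3 ligand genes differed in level and in change. Sequences are from GENCODE 29 transcripts on GRCh38, written 5′ to 3′ on the coding strand, with the codons of the site in capitals. Codons are counted from the start codon. Each genomic range covers the whole printed stretch, with the bases in small letters on both sides of the site. The arginine-glycine-aspartate codons occurred once in TGFB1 (codons 244 to 246, exon 5, minus strand, chr19:41341996-41342022) and once in TGFB3 (codons 261 to 263, exon 5, minus strand, chr14:75963444-75963470). The 414 codons of TGFB2 held no such run.
TGFB1 integrin site: accggccgcCGAGGTGACctggccacc
TGFB3 integrin site: gaccatggcCGTGGAGATctggggcgc

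The search for the furin-type cut took only runs of 4 codons that begin and end with an arginine codon. The codon before the last had to be lysine or arginine, and the run had to lie directly before the mature growth factor. Runs elsewhere were not counted. All 3 ligands held 1 such run. It was at codons 275 to 278 of TGFB1 (chr19:41341900-41341929), 299 to 302 of TGFB2 (plus strand, chr1:218436101-218436130) and 297 to 300 of TGFB3 (chr14:75963333-75963362), in exon 5 of each transcript. Here too the genomic ranges cover the whole printed stretch.
TGFB1 cleavage site: caaagctccCGGCACCGCCGAgccctggac
TGFB2 cleavage site: accaaccggCGGAAGAAGCGTgctttggat
TGFB3 cleavage site: gggggtcagAGGAAGAAGCGGgctttggac

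LTBP1, the target of the hairpin, was at 977, 964 and 1011 normalized counts in shSCR and at 59.0, 66.7 and 49.0 in shLTBP1. The deposited values are read counts after the authors' normalization with DESeq2, with library totals from 30479879 to 30941103. The test covered the 12789 genes whose mean over the 6 libraries reached 10; 53.1% of them passed an adjusted p of 0.05 in limma, 26.3% higher and 26.8% lower in shLTBP1, and the groups did not overlap for 60.8%. These shares are the background for the counts that follow. All 5 epithelial markers were expressed, with a sum of 307451 to 328371 in shSCR and 267214 to 291416 in shLTBP1. Most of that sum was KRT8 and KRT18. EPCAM was at 20770 to 22703 in shSCR and 9673 to 10516 in shLTBP1, and CDH1 was lower in every shLTBP1 library too, whereas KRT19 was at 26926 to 28602 and 30237 to 35499. None of 6 leukocyte markers reached a mean of 10, and their sum was 9.08 to 11.5 in shSCR and 6.53 to 11.5 in shLTBP1. Bulk RNA does not separate less RNA per cell from fewer cells that express a gene.

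Of the 10 genes, 6 had enough expression to be tested. TGFB1 and ITGB8 were lower in shLTBP1, BMP1 and FURIN were higher, and TGFB3 and THBS1 did not pass. The median log2 fold change of the 6 was -0.04, beside 0.00 for all genes tested. The share of the 6 that was called in either direction lies near the background, so the number of calls does not set these genes apart. TGFB2, ITGB6, LRRC32 and NRROS had means below 10 and are given as values.

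**Figure D1:**
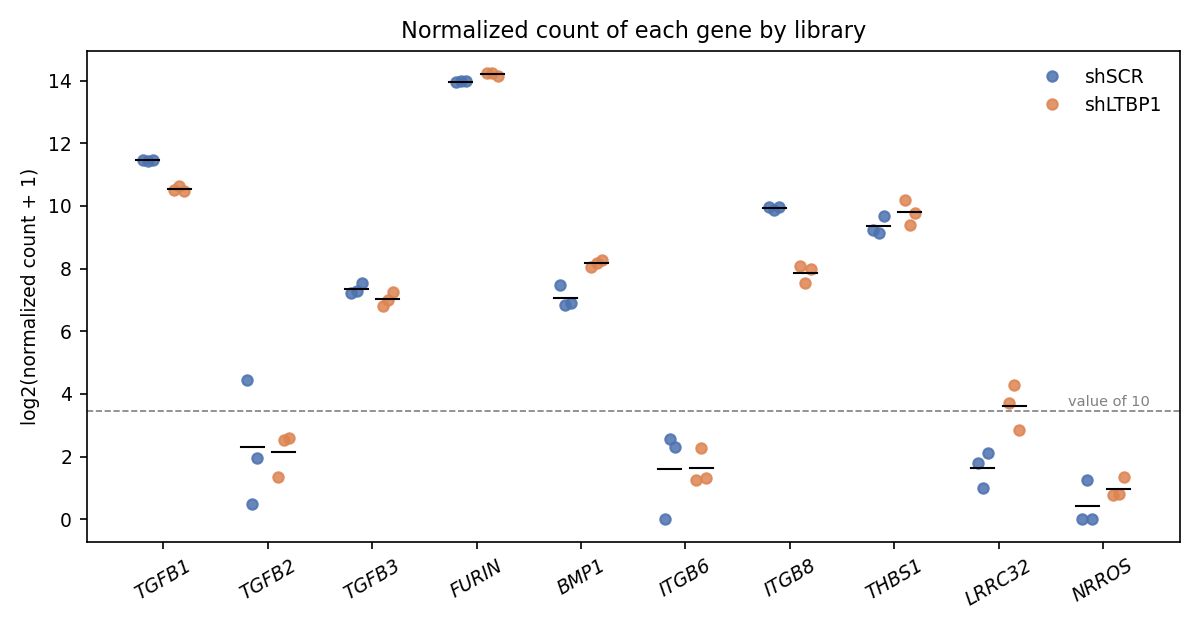
Each point is 1 library, as log2 of the normalized count plus 1, for the 10 genes (horizontal axis); black bars are group means and the dashed line marks a value of 10. TGFB1 and ITGB8 sit lower and BMP1 and FURIN higher in the 3 shLTBP1 libraries, while TGFB2, ITGB6 and NRROS lie near the bottom in both groups.

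TGFB1, the ligand most widely expressed in epithelia and tumours, was by far the most abundant of the 3 ligand RNAs and fell. Its normalized counts were 2859.8, 2749 and 2853 in shSCR and 1463, 1587 and 1428 in shLTBP1. All shLTBP1 values lay below all shSCR values. The means were 2821 ± 62.3 and 1493 ± 83.4 (SD, n = 3 each), and the shLTBP1 mean was 52.9% of the shSCR mean. Fold changes here are computed on log2(value + 1), and that of TGFB1 was -0.92 ± 0.06 (standard error), with a limma adjusted p of 9.08e-07. Only 5.58% of all tested genes had a lower log2 fold change. The gene lies on the minus strand of chromosome 19 from 41301587 to 41353911, where the median change of 25 tested neighbours on each side was 0.09. It shares 215 of its 3238 exon bases with HNRNPUL1 on the opposite strand, and the strand setting of the authors' counting is not given in the sources used here.

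TGFB3, the other ligand with an integrin-binding motif, did not pass the test. Its normalized counts were 149, 155 and 186 in shSCR and 112, 126 and 153 in shLTBP1. The highest shLTBP1 library overlapped the lowest shSCR library. The means were 163 ± 19.7 and 130.3 ± 20.9 (SD, n = 3 each). The log2 fold change was -0.33, with a 95% interval of -0.67 to 0.01 (limma adjusted p = 0.0949). Without shLTBP1 replicate 3 it was -0.45 and passed (limma adjusted p = 0.0362). The gene lies on the minus strand of chromosome 14 from 75958099 to 75982991.

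TGFB2, the ligand without that motif, was barely detected. Its values were 20.8, 0.397 and 2.88 in shSCR and 1.53, 4.76 and 5.06 in shLTBP1. A single shSCR library accounts for most of the signal of its group, and the groups overlapped. TGFB2 shares 1371 of 5151 exon bases with an overlapping transcript on the same strand. With no filter on expression its log2 fold change was -0.14 ± 0.88 (standard error; limma adjusted p = 0.917).

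Divided by exon length, so that genes can be compared, the ligand pool was almost wholly TGFB1. Its share of the summed level per kilobase of the 3 ligands was 96.3%, 96.4% and 95.8% in shSCR and 95.1%, 94.9% and 93.2% in shLTBP1. The share was slightly lower in every shLTBP1 library, and the difference in means was -1.76 percentage points, or -1.16 without shLTBP1 replicate 3. The means were 96.2% ± 0.297 and 94.4% ± 1.04 (SD, n = 3 each), and the exact two-sided permutation test gave p = 0.1, the lowest value possible with 3 against 3. The summed ligand level was 918, 881 and 919.5 normalized counts per kilobase in shSCR and 475, 517 and 473 in shLTBP1, and the groups did not overlap. The shLTBP1 mean was 53.9% of the shSCR mean (exact permutation p = 0.1). As the sum was almost wholly TGFB1, it largely restates the fall of TGFB1, whose shLTBP1 mean was 52.9% of its shSCR mean. The level of TGFB1 per kilobase was 26.4 ± 2.94 times that of TGFB3 in shSCR and 17.7 ± 3.09 times in shLTBP1 (SD, n = 3 each; exact permutation p = 0.1).

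**Figure D2:**
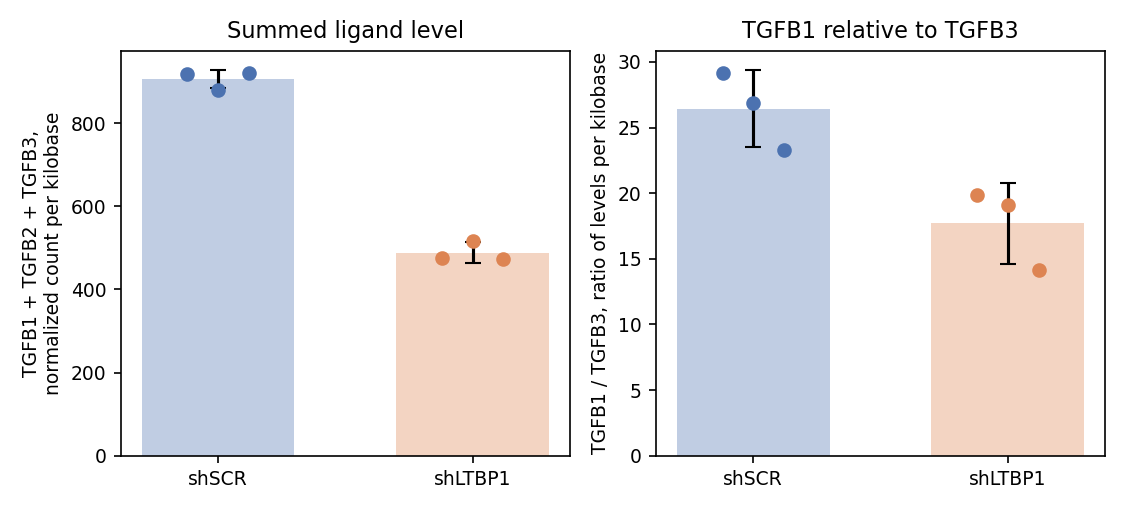
The left panel plots the summed level of TGFB1, TGFB2 and TGFB3 in normalized counts per kilobase of exon, and the right panel the ratio of the TGFB1 level to the TGFB3 level; bars are means, error bars SD and points the 3 libraries of each group. In both panels every shLTBP1 library lies below every shSCR library.

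Of the proteases that act on the complex, FURIN, the convertase that separates the mature growth factor from its propeptide, had the highest level of all 10 genes and was slightly higher in shLTBP1. Its normalized counts were 15746, 16153 and 16319 in shSCR and 19377, 19302 and 18298 in shLTBP1. Each shLTBP1 value exceeded each shSCR value. The means were 16073 ± 295 and 18992 ± 603 (SD, n = 3 each), a ratio of 1.18. The log2 fold change was 0.24 ± 0.04 (standard error; limma adjusted p = 0.000839), and 74.1% of tested genes had a lower one. After removal of trends with GC content and length it was 0.10 (limma adjusted p = 0.032). FURIN lies on the plus strand of chromosome 15 from 90868592 to 90883458 and shares no exon base with another annotated gene.

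BMP1, a tolloid metalloprotease that cuts procollagens as well as LTBP1, rose. Its normalized counts were 176, 113 and 118 in shSCR and 263, 291 and 310.1 in shLTBP1. The groups did not overlap, although shSCR replicate 1 stood above the other two. The means were 136 ± 35.1 and 288 ± 23.9 (SD, n = 3 each), a ratio of 2.12. The log2 fold change was 1.10 ± 0.17 (standard error; limma adjusted p = 0.000398), and 95.9% of tested genes had a lower one. BMP1 lies on chromosome 8, plus strand, from 22164736 to 22212326, and the median change of its neighbours was -0.10. It shares 461 of 7471 exon bases with an overlapping transcript on the same strand.

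ITGB8, the beta 8 integrin chain, had the lowest log2 fold change of the 6 tested genes and fell. Its normalized counts were 1007, 929.9 and 1003 in shSCR and 268, 186 and 254 in shLTBP1. Every shLTBP1 library was far below every shSCR library. The means were 979.9 ± 43.4 and 236 ± 43.8 (SD, n = 3 each), and the shLTBP1 mean was 24.1% of the shSCR mean. The log2 fold change was -2.07 ± 0.13 (standard error; limma adjusted p = 1.03e-06). Only 0.665% of tested genes had a lower log2 fold change. ITGB8 lies on the plus strand of chromosome 7 from 20330702 to 20415754, and its neighbours had a median of -0.13.

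ITGB6, the beta 6 chain found mainly on epithelia, was near the limit of detection. Its values were 0, 4.87 and 3.92 in shSCR and 1.38, 3.86 and 1.51 in shLTBP1. The groups overlapped, and with no expression filter the log2 fold change was 0.00 ± 0.68 (standard error; limma adjusted p = 0.998). The gene lies on chromosome 2 from 160099666 to 160200313 and shares 966 of 4687 exon bases with an overlapping transcript on the same strand. The log2 ratio of ITGB8 to ITGB6, with 1 added to each value, was 9.98, 7.31 and 7.67 in shSCR and 6.82, 5.27 and 6.66 in shLTBP1. It was lower in every shLTBP1 library (exact permutation p = 0.1). With ITGB6 at 0.00, the difference restates the fall of ITGB8, which had a log2 fold change of -2.07. The ratio also rests on very low ITGB6 values. Without shSCR replicate 1, where ITGB6 is listed at 0, the difference was -1.24 instead of -2.07.

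THBS1, the secreted glycoprotein thrombospondin 1, varied widely within both groups. Its normalized counts were 607, 565 and 825 in shSCR and 1178, 670.0 and 881 in shLTBP1. The lowest shLTBP1 library lay below the highest shSCR library. The means were 665 ± 139 and 909.8 ± 255 (SD, n = 3 each). The log2 fold change was 0.43, with a 95% interval of -0.01 to 0.87 (limma adjusted p = 0.0885). It passed without shSCR replicate 3 (0.60, limma adjusted p = 0.0334), without shLTBP1 replicate 2 (0.63, limma adjusted p = 0.0139) and after removal of GC content and length trends (0.55, limma adjusted p = 0.0319). Without shLTBP1 replicate 1 it was 0.23 (limma adjusted p = 0.302). THBS1 lies on the plus strand of chromosome 15 from 39581079 to 39599466 and shares 448 of its 9158 exon bases with FSIP1 on the opposite strand.

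**Figure D3:**
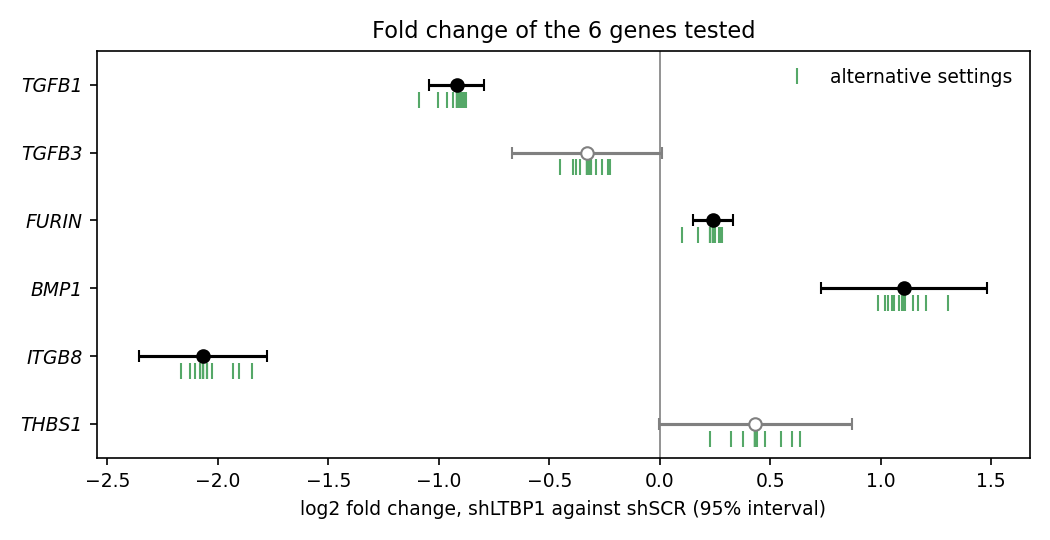
Log2 fold change of the 6 genes tested, shLTBP1 against shSCR, with 95% intervals from limma (filled circles, adjusted p under 0.05; open circles, not); green ticks under each give the values under the alternative settings. TGFB1, ITGB8, FURIN and BMP1 keep to 1 side of 0, and the intervals of TGFB3 and THBS1 reach across it.

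Of the pair of cell surface anchors, LRRC32 had values of 2.50, 1.01 and 3.34 in shSCR and 11.97, 18.3 and 6.18 in shLTBP1. Its groups did not overlap, which was so for 14.6% of the 3901 genes with a mean above 0 and below 10. With no expression filter its log2 fold change was 1.96 ± 0.47 (standard error; limma adjusted p = 0.00893), and 8.56% of those genes with low means passed in that fit. LRRC32 shares 87 of 4459 exon bases with an antisense transcript. Of 3 platelet markers, ITGA2B was at 85.8, 105 and 84.6 in shSCR and at 212, 181 and 207 in shLTBP1, higher in the same libraries as LRRC32. PF4 is listed at 0 in every library and PPBP stayed under 1. The part of these markers in the LRRC32 values was not tested. NRROS had values of 0, 1.39 and 0 in shSCR and 0.715, 0.745 and 1.56 in shLTBP1, and the groups overlapped. It is known from myeloid cells, and the leukocyte markers were at similarly low values here. NRROS shares 222 of 2910 exon bases with a protein-coding gene on the same strand.

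Per kilobase of exon, the order of levels in shSCR was FURIN (3399 ± 62.4 normalized counts per kilobase), TGFB1 (871 ± 19.2), THBS1 (72.7 ± 15.2), ITGB8 (64.7 ± 2.86), TGFB3 (33.2 ± 4.0), BMP1 (18.2 ± 4.69), TGFB2, ITGB6, LRRC32 and NRROS, the last 4 at 1.56 or less. THBS1 and ITGB8 overlapped, as did the neighbours among the last 4. In shLTBP1, BMP1 (38.6 ± 3.19) came directly after THBS1, above TGFB3 (26.5 ± 4.25) and ITGB8 (15.6 ± 2.89), with no overlap between these neighbours. ITGB8 thus moved from above TGFB3 to below it, and BMP1 from below both to above both. Exon length was the union of all annotated exons, 15156 bases for ITGB8, which lowers the level of genes with long rarely used exons. Whether the authors' normalization also adjusted each gene for transcript length is not known, and such a step would change levels per kilobase.

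Other genes of the latent complex were counted from 9 lists, which hold 61 genes besides LTBP1. Of 38 with enough expression, 10 (26.3%) rose and 12 (31.6%) fell, beside 26.3% and 26.8% of all genes tested. The median log2 fold change of the 38 was 0.07. Single lists hold few tested genes, so the counts within each list below are not read as a direction of that list.

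The list of integrin chains that can pair with beta 8 or bind the same motif included 4 tested genes, of which 3 fell and none rose (median -0.42). ITGAV, the alpha V chain with which both beta 6 and beta 8 pair, had normalized counts of 4622, 4213 and 4438 in shSCR and 2595, 1961 and 2060.4 in shLTBP1. All 3 shLTBP1 values were lower (log2 fold change -1.01, limma adjusted p = 1.45e-05). ITGAV lies on chromosome 2, where its neighbours had a median of -0.55, and with that median subtracted it was at -0.46 (limma adjusted p = 0.00338). ITGB1, the widely shared beta 1 chain, fell from 23132 ± 290 to 17027 ± 760 (SD, n = 3 each; log2 fold change -0.44), while ITGB5 was at 7781 ± 508 and 7663 ± 421 and did not pass (limma adjusted p = 0.783).

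Among latent binding proteins and matrix anchors, 3 of 8 tested genes fell, LTBP1 itself included, and none rose. Fibronectin (FN1), in which latent complexes are deposited, fell from 632 ± 13.8 to 194 ± 39.7 (SD, n = 3 each), with a log2 fold change of -1.72. It lies on chromosome 2 too, where its neighbours had a median of -0.60, and was at -1.12 with that median subtracted. LTBP3, which also carries latent TGF-beta, was the most abundant of its family at 551.9 normalized counts per kilobase in shSCR and 584 in shLTBP1. LTBP1 was at 134 ± 3.30 and 7.95 ± 1.21 on the same scale. LTBP1 is also on chromosome 2, and its neighbours had a median of -0.58. Its log2 fold change was -4.07, or -3.48 with that median subtracted.

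Proteases moved in both directions. Of the 5 tested convertases related to FURIN that are reported here, 3 rose. PCSK2 rose by 0.87 and PCSK7 by 0.51 on the log2 scale, the latter by 0.80 after removal of GC content and length trends. Of 3 tested genes of the tolloid list, PCOLCE, an enhancer of BMP1 on procollagen, fell from 89.1 ± 18.0 to 51.8 ± 6.998 (SD, n = 3 each), with a limma adjusted p of 0.0108, and the BMP1 relative TLL2 did not pass. A list of proteases linked to release of latent TGF-beta, with the receptor PLAUR, which is not a protease, had 4 tested genes. PLAT and MMP14 fell, with log2 fold changes of -2.23 and -1.67, and PLAUR did not pass. The lysosomal protease CTSD rose from 22005 ± 472 to 37200.3 ± 2458 (SD, n = 3 each).

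Other thrombospondins and receptors of thrombospondin 1 had 2 of 3 tested genes higher and none lower. THBS3 rose from 208 ± 23.2 to 301 ± 12.2 and CD47, a receptor of thrombospondin 1, from 912 ± 60.1 to 1139.6 ± 19.6 (SD, n = 3 each). Their log2 fold changes were 0.54 and 0.32.

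Proteins that bind TGF-beta outside the cell included the most extreme values of the lists. Biglycan (BGN), a small leucine-rich proteoglycan, had values of 3.47, 0.853 and 0.783 in shSCR and 60.2, 57.4 and 54.1 in shLTBP1 (log2 fold change 4.57, limma adjusted p = 2.36e-05). Lumican (LUM), of the same family, is listed at 0 in all shSCR libraries and had values of 41.5, 52.0 and 36.6 in shLTBP1 (limma adjusted p = 1.31e-05). BGN and LUM reached the mean of 10 needed for testing only through their shLTBP1 values, and both are counted among the rises of the lists. The size of their changes depends on the pseudocount. With a pseudocount of 5 or 0.5, the log2 fold change was 3.24 or 4.92 for BGN and 3.26 or 6.44 for LUM. LUM is also among 7 fibroblast markers, of which 2 reached a mean of 10, COL1A1 being the other. The sum of that marker list was 1095 to 1342 in shSCR and 706 to 931 in shLTBP1, and nearly all of it was COL1A1. Decorin (DCN), a marker in the same list and a binder of TGF-beta like LUM, is listed at 0 in all shSCR libraries and had values of 0.774, 4.53 and 3.13 in shLTBP1. PDGFRB stayed under 1 in every library, and COL1A2, COL3A1 and PDGFRA stayed under 5. What part the fibroblast markers had in the BGN and LUM values was not tested. LRG1, a secreted modulator of TGF-beta signalling, went from 564 ± 23.5 to 462 ± 30.4 (SD, n = 3 each) and fell (limma adjusted p = 0.0124).

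Of 5 tested receptors and co-receptors, 1 rose and 2 fell. TGFBR2, the ligand-binding receptor kinase, rose by 0.16 on the log2 scale (0.24 with the neighbours' median subtracted), and lost its call when shSCR replicate 3 (limma adjusted p = 0.0749) or shLTBP1 replicate 3 (0.0567) was left out. The co-receptor TGFBR3 went from 6369.9 ± 97.0 to 4376 ± 295 (SD, n = 3 each) and fell (limma adjusted p = 2.4e-05). ENG, another co-receptor, fell by 0.17 (limma adjusted p = 0.0356). Its call was lost when any 1 of shSCR replicates 1, 2 and 3 and shLTBP1 replicates 2 and 3 was left out (limma adjusted p = 0.0707 to 0.106), and also under upper quartile scaling, under quantile normalization and without a variance trend. Its log2 fold change was -0.34 after removal of GC content and length trends. Among 4 tested genes listed as other members of the TGF-beta family, GDF15, a stress-induced cytokine, rose by 0.33 and GDF11 fell by 0.31. After removal of GC content and length trends GDF15 was at 0.13 and GDF11 at -0.21, and GDF15 was at 0.16 with the neighbours' median subtracted.

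**Figure D4:**
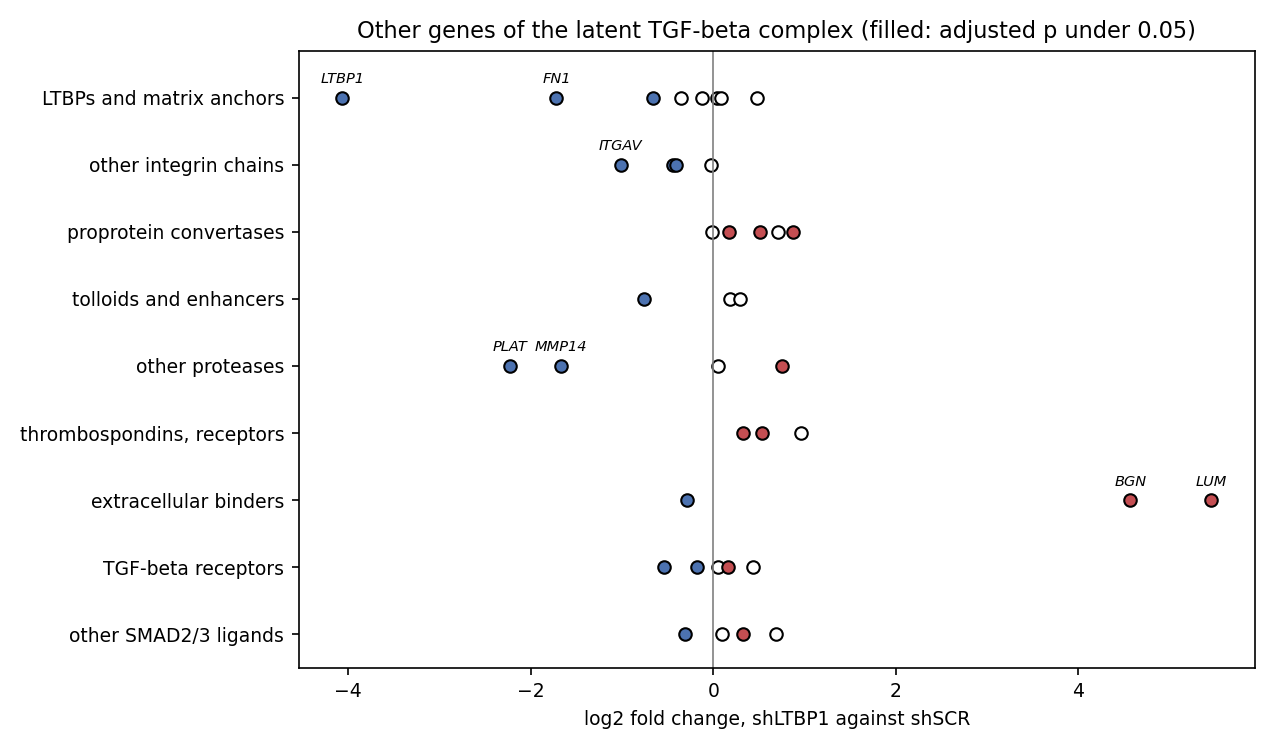
Each point is a tested gene of the 9 lists, placed by its log2 fold change in shLTBP1 against shSCR; red and blue points passed as higher and lower, open points did not pass. Points lie on both sides of 0, with LTBP1, PLAT, FN1 and MMP14 farthest to the left and BGN and LUM to the right, LUM being listed at 0 in shSCR.

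Genes whose profiles over the 6 libraries came closest to those of TGFB1, BMP1 and ITGB8 were sought among the 10784 genes outside the 10 whose mean reached 100. The measure was the root mean square difference of log2 values centred on each gene's mean. For TGFB1 they were FLNA (0.01), LRRFIP1 (0.03) and CSTB (0.03). LRRFIP1 lies on chromosome 2, and LRRFIP1 and CSTB had log2 fold changes of -0.90 and -0.93, or of -0.48 and -0.53 with their neighbours' medians subtracted. FLNA, the actin crosslinker filamin A, had normalized counts of 32729, 31287 and 32791 in shSCR and 16991, 18522 and 16598 in shLTBP1. As with TGFB1, shSCR replicate 2 was the lowest of its group and shLTBP1 replicate 2 the highest, an order that the search over these same libraries favours. By this measure, genes with a like change between the groups come out close, and shared regulation was not tested. For ITGB8 they were MGAT5B (0.06), GPX2 (0.13) and DCBLD2 (0.13), and for BMP1 they were ALDOC (0.13), IFI6 (0.14) and ZNF441 (0.15). The profile of BMP1 was matched less closely than that of TGFB1, while for ITGB8 only the closest match, MGAT5B, was clearly nearer. The measure also takes in library-to-library spread, which in shSCR was wide for BMP1 (136 ± 35.1, beside 2821 ± 62.3 for TGFB1, SD, n = 3 each). The part of that spread in the looser match was not tested.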

How the data were processed

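RNA-seq of 3 shSCR and 3 shLTBP1 libraries was analysed, with group and replicate taken from the sample titles. Each deposited value is a signal, a fractional count per gene scaled by the authors using DESeq2, per the file headers and name. FastQC 0.10.1, STAR 2.7.3a, RSEM 1.3.1, DESeq2 and build hg38 are named per the submitters' processing notes; gene annotation and strand setting were not given in the sources used here. In the low range, 35.1% to 37.2% of values per library fell within 0.1 of a multiple of the commonest value near 1, so whole reads could not be recovered, count tests were not used and the depth is unknown. Whether the scaling included offsets for transcript length per gene is not known.

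Genes whose mean reached 10 were tested on log2(value + 1) with limma (version 3.58.1, R version 4.3.3), with group as the only term (4 residual and 5.6 prior degrees of freedom), a mean-dependent variance trend, and Benjamini-Hochberg adjustment over 12789 genes at 0.05, two-sided. The pseudocount of 1 understates changes of low genes. Single values were compared by exact permutation. The fit was also run on simulated data, in which far fewer genes changed than passed here and the libraries were independent. That run does not bear on spread between libraries that may be technical. Positions, exon lengths, GC content and sequences came from GENCODE 29 on GRCh38, the assembly hg38 names; 19872 genes matched.

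The members and lists were chosen with earlier results of these data known, and 1 gene of the lists is not reported here. From each list the rule names up to 2 of the largest rises and 2 of the largest falls that passed; ITGB5, LTBP3, TLL2, PLAUR, HNRNPUL1, FSIP1, the cell type markers and DCN were named after their values were seen. The alternatives were a pseudocount of 0.5 or 5, an expression filter of none or 50, upper quartile or quantile scaling, robust or trend-free moderation, a replicate block, omission of each library, subtraction of the median over 25 neighbouring genes per side, and removal of GC content and length trends by splines.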

Additional observations from a re-analysis of the deposited data

How the results depend on the processing

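TGFB1, ITGB8, BMP1 and FURIN kept their direction and passed under each of 17 alternatives, with log2 fold changes of -1.09 to -0.88, -2.17 to -1.85, 0.99 to 1.31 and 0.10 to 0.28. TGFB3 passed in 1 and THBS1 in 4 of the 17. Of 102 values for the 6 genes none changed sign. Of 491 values for 29 other named genes, 10 lost the call (8 for ENG, 2 for TGFBR2) and none changed sign. The number of genes past the threshold lay between 5828 and 6862, against 6788. The TGFB1 share of the ligand level differed by -1.76 percentage points, by -2.54 with no division by exon length, and by -2.13 to -1.16 with 1 library left out, the smallest difference being without shLTBP1 replicate 3. Replicate numbers did not pair the libraries (Pearson's r of deviations across genes was -0.009, 0.058 and -0.001 for equal numbers). With a replicate block, 6755 genes passed, THBS1 passed (limma adjusted p = 0.0279), and no other call among the 6 genes changed. Without read counts, the counting error of TGFB2, ITGB6, LRRC32 and NRROS is not known, and their standard errors cover the spread between libraries only.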
